A study of Mus musculus with 25 samples.

Results

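Collagen genes were followed in RNA from mouse sperm of the cauda epididymis. Their members were all genes of the deposited table whose symbol has the form Col, a number, a and a number, and there were 44 of them among 24358 genes. All 44 had a valid estimate in each of the 5 conditions. The conditions combined 5 libraries each. C57.CTL.F1 and, likewise, C57.D300.F1 were first generation C57BL/6J males whose mothers were given corn oil or 300 mg/kg/day of the phthalate DEHP, bis(2-ethylhexyl)phthalate, by mouth from embryonic day 9 to 19. FVB.CTL.F1 and FVB.D300.F1 were the FVB/N males of the same treatments. C57.D300.F2 were the sons of C57.D300.F1 males and unexposed females. That lineage has no vehicle condition of its own generation, so generation and treatment cannot be told apart in its comparisons with C57.CTL.F1. All males were 14 weeks old. The question was whether prenatal DEHP changes sperm RNA in a way that depends on strain and reaches the second generation.

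Collagens are secreted proteins of the extracellular matrix whose chains wind around each other in a triple helix. Fibrillar collagens form the load-bearing fibrils of connective tissue, type IV collagens form the sheet-like network of basement membranes, and type VI collagens form beaded filaments around cells. FACIT collagens sit on the surface of fibrils, multiplexins lie at the border of basement membranes, and the others form short chain networks, anchoring fibrils or transmembrane proteins. In the male tract, collagens are known from the connective tissue, vessels, muscle layer and epithelial basement membranes of the duct. By class, the 44 genes were 11 fibrillar, 6 type IV, 9 FACIT, 6 type VI, 3 short chain network, 4 transmembrane, 2 multiplexin and 3 other genes, the last with the anchoring fibril gene Col7a1.

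Each value is 1 estimated fragment count per gene and condition, on Cuffdiff's scale across libraries and without division by length. There is no replicate to compare, so p-values are absent. The error given with a count is its SD under Cuffdiff's model, called model SD here. The Cuffdiff options behind it are not given in the sources used here, so what spread it covers is not known. A log2 ratio was computed with 1 added to each count, and a gene was called higher or lower at 1 log2 unit when either compared condition reached 10 counts. The counts of all genes summed to between 6921688 and 8602900 per condition. In RNA from many cells, fewer cells of a type and less RNA per cell cannot be told apart. The 10 first generation C57BL/6J libraries were re-analysed from earlier work and the other 15 were newly made, so any comparison between these sets may hold a difference between sets, which cannot be told apart from strain or generation. DEHP against vehicle stays within 1 set in both strains. Sperm transcripts were present in every condition but at unequal levels. The 7 sperm and late germ cell markers summed to 82338, 69030.2, 27478, 6735 and 7992 counts. Here and below, 5 values listed without names begin with C57.CTL.F1 (vehicle), then give C57.D300.F1 (exposed) and its sons C57.D300.F2, and end with the FVB/N vehicle FVB.CTL.F1 and the exposed FVB.D300.F1.

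Promoter windows are shown for a pair of abundant fibrillar genes, for a type IV gene that shares its start region with another and for the neighbouring type VI genes Col6a5 and Col6a6, since the results turn on these classes. Col1a1 was not matched. Each runs from 250 bases before to 50 bases after the start of transcription, from RefSeq on GRCm38.p6, the genome of the files. Capitals mark matches to a motif on either strand, so that a match on the other strand shows as the reverse complement. The TATA box was searched as TATAAA. The CCAAT box was searched by the letters of its name. The GC box was searched as GGGCGG. Matches of different motifs were allowed to overlap. Col1a2 lies on the plus strand at chr6:4505368-4505667, Col3a1 on the plus strand at chr1:45311288-45311587, Col4a2 on the plus strand at chr8:11312555-11312854, Col6a5 on the minus strand at chr9:105960594-105960893 and Col6a6 on the minus strand at chr9:105828036-105828335.
Col1a2: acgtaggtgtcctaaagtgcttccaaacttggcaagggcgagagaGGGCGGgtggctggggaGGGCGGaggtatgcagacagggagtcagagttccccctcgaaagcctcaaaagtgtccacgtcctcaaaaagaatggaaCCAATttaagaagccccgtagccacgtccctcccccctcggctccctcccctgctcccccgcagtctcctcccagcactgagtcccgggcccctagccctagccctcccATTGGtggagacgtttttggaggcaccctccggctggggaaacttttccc
Col3a1: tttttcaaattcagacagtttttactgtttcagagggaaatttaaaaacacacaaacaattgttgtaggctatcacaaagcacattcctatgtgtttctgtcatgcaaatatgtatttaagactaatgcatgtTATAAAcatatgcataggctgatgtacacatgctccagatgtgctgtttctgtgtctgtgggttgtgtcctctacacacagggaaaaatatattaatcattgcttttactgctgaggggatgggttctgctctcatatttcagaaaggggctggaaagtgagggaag
Col4a2: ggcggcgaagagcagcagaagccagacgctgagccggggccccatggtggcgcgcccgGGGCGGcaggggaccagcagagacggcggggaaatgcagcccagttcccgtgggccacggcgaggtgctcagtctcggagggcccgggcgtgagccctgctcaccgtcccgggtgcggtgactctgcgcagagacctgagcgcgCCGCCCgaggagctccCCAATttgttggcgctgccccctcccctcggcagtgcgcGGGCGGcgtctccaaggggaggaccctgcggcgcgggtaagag
Col6a5: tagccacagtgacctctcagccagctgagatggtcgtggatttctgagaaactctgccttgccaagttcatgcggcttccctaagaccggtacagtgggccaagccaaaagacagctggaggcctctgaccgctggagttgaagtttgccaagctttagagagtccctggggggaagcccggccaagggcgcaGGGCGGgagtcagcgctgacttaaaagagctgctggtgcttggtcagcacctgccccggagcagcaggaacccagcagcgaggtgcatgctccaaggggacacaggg
Col6a6: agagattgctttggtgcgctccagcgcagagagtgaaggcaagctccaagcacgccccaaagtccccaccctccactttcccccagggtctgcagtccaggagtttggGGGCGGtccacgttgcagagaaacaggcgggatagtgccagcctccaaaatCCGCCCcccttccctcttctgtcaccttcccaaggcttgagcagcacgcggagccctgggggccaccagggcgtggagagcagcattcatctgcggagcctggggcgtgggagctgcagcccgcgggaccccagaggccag

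The windows of Col1a2 and Col3a1 differed in composition although both genes were abundant: GC made up 61.0% of the first, with GC and CCAAT boxes, and 37.7% of the second, which held a TATAAA and none of the other motifs. The Col4a2 window is the GC-richest shown (73.7%), and it covers the start of Col4a1, which lies 21 bases away on the opposite strand of chromosome 8. Col4a3 and Col4a4 start 72 bases apart on chromosome 1, and Col4a5 and Col4a6 start 1309 bases apart on chromosome X. The windows of Col6a5 and Col6a6 each held a GGGCGG on their own strand and neither a TATAAA nor a CCAAT. Windows were found for 35 of the 44 members (38 windows). TATAAA was found in 5 of the 35 genes, against 13.6% of all 32851 windows. CCAAT was found in 13 genes, against 37.4% of all windows, and GGGCGG in 22, against 35.7%. The matches describe the letters of these windows and no binding was measured.

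Fibrillar and type VI genes held most of the collagen RNA in every condition. Of the 44 genes, 42 had at least 10 counts and 25 at least 100 counts in some condition, and 35 and 21 did so in every condition. The summed collagen count was 45295 ± 5674, 61838 ± 9286, 73479.6 ± 11029, 51226 ± 6319 and 42934 ± 5101 (model SD, with genes taken as independent). Fibrillar genes made up 54.9, 56.0, 53.1, 50.4 and 48.4% of it. Type VI genes made up 21.4, 23.7, 30.2, 28.9 and 30.7%, and type IV genes 5.45, 4.20, 3.73, 5.26 and 5.60%. The type VI share was lowest in C57.CTL.F1 and highest in the 3 newly made conditions. Per kb of annotated exon, the fibrillar share was 51.7, 52.7, 50.1, 47.8 and 45.7%, close to its share of the counts.

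Col1a1, Col1a2 and Col3a1 encode the chains of the type I and type III fibrils of general connective tissue and were the most abundant members by count in all 5 conditions. Col1a1 had 8376 ± 3369, 11667 ± 5482, 13447 ± 6418, 8399 ± 3414 and 6494 ± 2617 (model SD). Col1a2 had 7666, 11073, 12940.1, 7617 and 5936 counts. Col3a1 had 7249, 9883, 10319.5, 7895 and 6871 counts. Each was highest in C57.D300.F2 and lowest in FVB.D300.F1. Per kb of all annotated exons, Col1a1 ranked first in all 5 conditions, from 989 in FVB.D300.F1 to 2049 in C57.D300.F2, and Col3a1 second. This order depends on the length used. With the longest annotated transcript as length, Col1a1 to Col1a2 lay between 0.937 and 0.995, so Col1a2 then stood above Col1a1. The type V chains, which set the diameter of type I fibrils, were less abundant. Col5a1 had 934, 1157, 1401, 1128 and 789 counts and Col5a2 329.8, 528, 591, 501 and 413 counts. Col11a1, a cartilage and minor fibril chain, and Col5a3, the rarer type V chain, reached 100 counts in C57BL/6J and peaked at 105 and 103 counts.

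**Figure D1:**
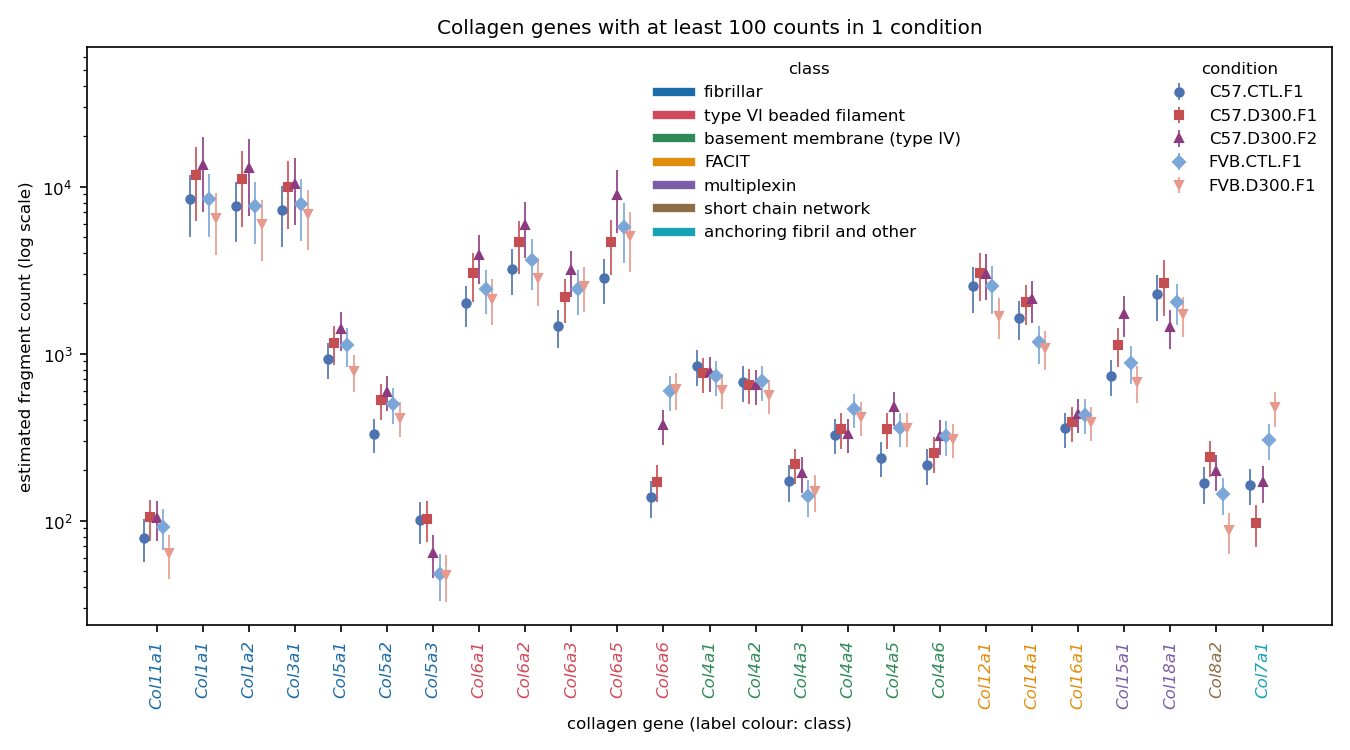
Estimated fragment counts (log scale) of the 25 collagen genes that reached 100 counts in some condition, ordered by class, with 1 marker per condition and the model SD as bars. Col1a1, Col1a2 and Col3a1 stood highest in every condition, and the type IV genes Col4a1 and Col4a2 differed little between conditions.

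The type IV genes had the smallest span between conditions of the 8 classes, the highest sum being 1.14 times the lowest. It was 1.88 times for fibrillar and 2.29 times for type VI genes. Col4a1 and Col4a2, the chains of nearly all basement membranes, had 839.7, 764, 772, 733 and 607 counts and 677, 652, 646, 681 and 565 counts. Their highest value was 1.38 and 1.21 times their lowest. Col4a3 and Col4a4, which join Col4a5 in the basement membrane of the kidney filter and some epithelia, had 172, 217, 193, 140.0 and 149.9 counts and 326, 354, 329, 466 and 417 counts. Col4a5 had 238, 354, 477, 357 and 358 counts and Col4a6, its partner in smooth muscle basement membranes, 215, 254, 323, 319 and 308 counts. The summed type IV count was 2468, 2595, 2740.1, 2696 and 2404, and in none of the 7 comparisons between conditions did it differ by more than its model SD.

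The type VI genes spanned a wide range. Col6a1 and Col6a2, the chains that every type VI filament contains, had 1999, 3018, 3865, 2448 and 2134 counts and 3229, 4626, 5868, 3623 and 2833 counts. Col6a3, their usual partner, had 1454, 2166, 3160.0, 2431 and 2546 counts. Col6a4, Col6a5 and Col6a6 can take the place of Col6a3, and they lie near each other on the minus strand of chromosome 9, Col6a6 at chr9:105687809-105828160, Col6a5 at chr9:105856078-105960643 and Col6a4 at chr9:105989454-106096783. Col6a5 had 2841 ± 850.1, 4642 ± 1686, 8910.4 ± 3621, 5702 ± 2224 and 5047 ± 1977 (model SD). Col6a6 had 138, 171, 373, 596 and 613 counts, and Col6a4 35.3, 28.6, 47.6, 8.90 and 13.1 counts. These 3 neighbours thus had different orders across the conditions: Col6a5 was highest in C57.D300.F2, Col6a6 in the FVB/N conditions, and Col6a4 in C57BL/6J.

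Among the FACIT genes, Col12a1 and Col14a1, which coat type I fibrils, had 2523, 3029, 3003, 2534 and 1684 counts and 1642, 2032, 2112, 1169 and 1080.2 counts, and Col16a1 had 357, 387, 436, 432 and 389.5 counts. Both multiplexins were well measured. Col15a1, a collagen of muscle and vessel basement membranes, had 736, 1131, 1722, 879 and 673 counts, and Col18a1, the precursor of endostatin, 2265, 2653, 1443, 2047 and 1725 counts. Col8a2, a short chain network collagen, had 167, 240.4, 199, 145 and 87.4 counts. Col7a1 (chr9:108953586-108984875), the anchoring fibril collagen of skin and other lining epithelia, had 164, 96.6, 171, 303 and 476 counts. The microRNA gene Mir711 shares 36 exon bases with Col7a1 on the same strand, and its own count was under 1 in every condition. The remaining 19 members stayed under 100 counts in every condition. Their highest values ran from 8.82 counts for Col9a2, a cartilage FACIT chain, to 99.0 counts for Col27a1, a fibrillar gene. The 9 FACIT genes included the 2 members that never reached 10 counts, Col19a1 and Col9a2.

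In C57BL/6J, most fibrillar and type VI genes had a ratio of DEHP to vehicle above 0, and no member reached the call threshold. Of the 40 members with enough counts, 0 were called higher and 0 lower, against 1.09% higher and 1.15% lower of all 16825 genes. The median log2 ratio, DEHP to vehicle, was 0.17 over these members and -0.011 over all genes. It was 0.40 for the 11 fibrillar, 0.55 for the 6 type VI and 0.18 for the 6 type IV genes. The log2 ratio was 0.48 ± 0.89 for Col1a1, 0.53 ± 0.89 for Col1a2 and 0.45 ± 0.85 for Col3a1, each within its model SD. Col5a2 went from 329.8 to 528 counts (0.68 ± 0.49). Col15a1 went from 736 to 1131 (0.62 ± 0.51). Col7a1 went the other way, from 164 to 96.6 counts (-0.76 ± 0.53). With a rule that asks only for a count difference above its model SD, 4 members were higher (Col4a5, Col5a2, Col8a2 and Col15a1) and 1 was lower (Col7a1), against 3.45% and 3.13% of all genes. The summed collagen count was 45295 with vehicle and 61838 with DEHP, a difference of 16543 ± 10883 (model SD, with genes taken as independent, which makes it too small where they vary together). For fibrillar genes alone the difference was 9784 ± 10281, and for type VI genes 4956 ± 3001.

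In FVB/N, the same exposure went with ratios below 0 for 7 of 11 fibrillar and 3 of 6 type VI genes, again without a call. Of 39 members, 0 were higher and 0 lower, against 2.16% and 0.619% of all 16471 genes. The median log2 ratio here was -0.15 over the members and 0.0046 over all genes. By class it was -0.20 for fibrillar, -0.068 for type VI and -0.11 for type IV genes. Col1a1 went from 8399 to 6494 counts (-0.37 ± 0.83), and Col5a1 from 1128 to 789 (-0.51 ± 0.52). These differences lay within their model SDs. By the model SD alone, 1 member was higher (Col7a1, 0.65 ± 0.49) and 1 lower (Col8a2, -0.72 ± 0.53), against 3.76% and 1.89% of all genes. These are the anchoring fibril gene and the short chain network gene that also stood past their model SD in C57BL/6J, with the other sign. The summed collagen count differed by -8292 ± 8121, and that of the fibrillar genes by -5030.1 ± 7130.0.

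The response to DEHP was then compared between strains as the difference of the log2 ratios, FVB/N minus C57BL/6J. With 1 value per condition it was not tested. Over the 41 members with enough counts, the median was -0.27, beside 0.029 over all 17556 genes. In 21 of the 41 members the ratio was above 0 in C57BL/6J and below 0 in FVB/N, which is 51.2% of them, against 24.3% of all genes. This was so for 7 of 11 fibrillar genes, 3 of 6 type VI genes and 2 of 6 type IV genes. Signs depend on where the scale puts 0. Scaled to equal totals, the median over all genes was 0.14 in C57BL/6J and -0.13 in FVB/N. The share of members and that of all genes were not recomputed on other scales. The median difference was -0.65 for fibrillar, -0.65 for type VI and -0.26 for type IV genes. Genes are not independent replicates. By size, 1 member was at or above 1 (Col7a1, 1.41 ± 0.72) and 2 were at or below -1, Col8a2 (-1.25 ± 0.73) and Col15a1 (-1.004 ± 0.73). Among all genes, 4.45% and 2.92% were that far apart. The abundant fibrillar genes differed by less than their model SD, with -0.85 ± 1.22 for Col1a1 and -0.65 ± 1.17 for Col3a1. Col5a2 (-0.96 ± 0.69) exceeded it.

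**Figure D2:**
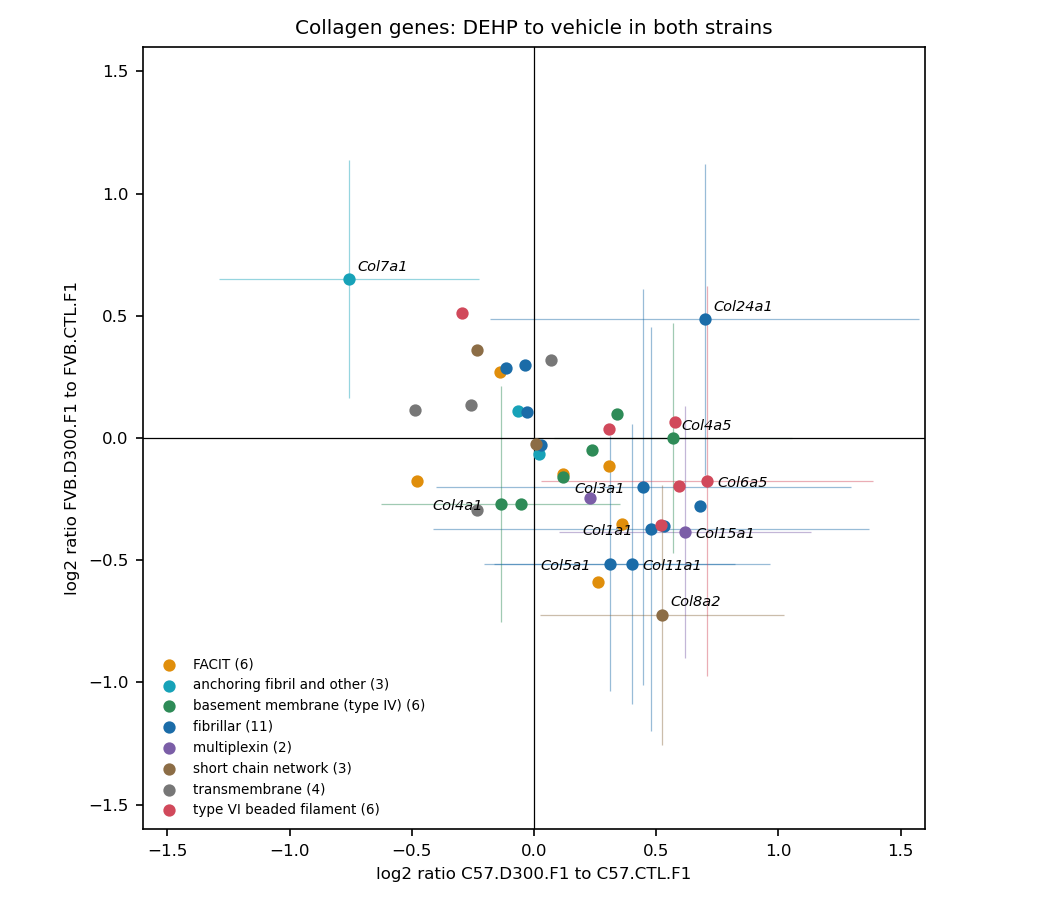
Log2 ratio of DEHP to vehicle in C57BL/6J (horizontal axis) and FVB/N (vertical axis) for the 41 collagen genes that reached 10 counts in any of the 4 first generation conditions, coloured by class, with the model SD as bars on the labelled genes. Most fibrillar genes lie in the lower right quadrant, and Col7a1 and Col8a2 lie on opposite sides of both axes.

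In the second generation of the exposed C57BL/6J lineage, the type VI genes had the highest median ratio of the classes. This was not particular to that generation. Against C57.CTL.F1, the type VI median was also the highest of the classes in C57.D300.F1 (0.55) and in the unexposed FVB.CTL.F1 (0.52). C57.D300.F2 and FVB.CTL.F1 are both newly made, so their comparisons with C57.CTL.F1 cross the library sets. Against C57.CTL.F1, 5 of 41 members were called higher in C57.D300.F2 and 0 lower, against 4.1% higher and 10.2% lower of all 17114 genes. Of these 5, 3 were type VI genes. Col6a5 went from 2841 to 8910.4 counts, a log2 ratio of 1.65 ± 0.73. Col6a6 went from 138 to 373 (1.42 ± 0.50), and Col6a3 from 1454 to 3160.0 (1.12 ± 0.58). The others were the multiplexin Col15a1, from 736 to 1722 (1.23 ± 0.53), and the minor fibrillar gene Col24a1, from 9.26 to 26.2 (1.41 ± 0.84). Each of the 5 differences exceeded its model SD. Col4a5, at 0.999, lay just under the threshold, with 238 and 477 counts. The median was 0.29 over the members and -0.040 over all genes, and by class 1.04 for type VI, 0.58 for fibrillar and 0.092 for type IV genes. Scaled to equal totals, the median of all genes moved to 0.28 and that of the members lay 0.36 above it, compared with 0.33 above it as deposited. On that scale 12 members were called higher, against 9.23% of all genes, and 12 with the upper quartile as scale, against 8.44%. The summed type VI count differed by 12528 ± 4735, and the summed fibrillar count by 14163 ± 11329.7.

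By the model SD alone, 11 members were higher and 3 lower in this comparison, against 8.72% and 18.2% of all genes. Those higher included Col5a1 (0.58 ± 0.51), Col5a2 (0.84 ± 0.48), Col6a1 (0.95 ± 0.61) and Col6a2 (0.86 ± 0.69). The 3 lower were Col18a1 (-0.65 ± 0.58), Col5a3 (-0.65 ± 0.58) and the muscle-tendon FACIT gene Col22a1 (-0.94 ± 0.63). Col1a1, at 0.68 ± 0.90, stayed within its model SD. The multiplexins went apart, with Col15a1 called higher and Col18a1 at 1443 against 2265 counts. Against C57.D300.F1, 1 of 41 members was called higher, Col6a6 (1.12 ± 0.50), and 0 lower, against 2.69% and 8.35% of all genes. This comparison and the one before share the C57.D300.F2 value. The median was 0.17 over the members and -0.046 over all genes.

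**Figure D3:**
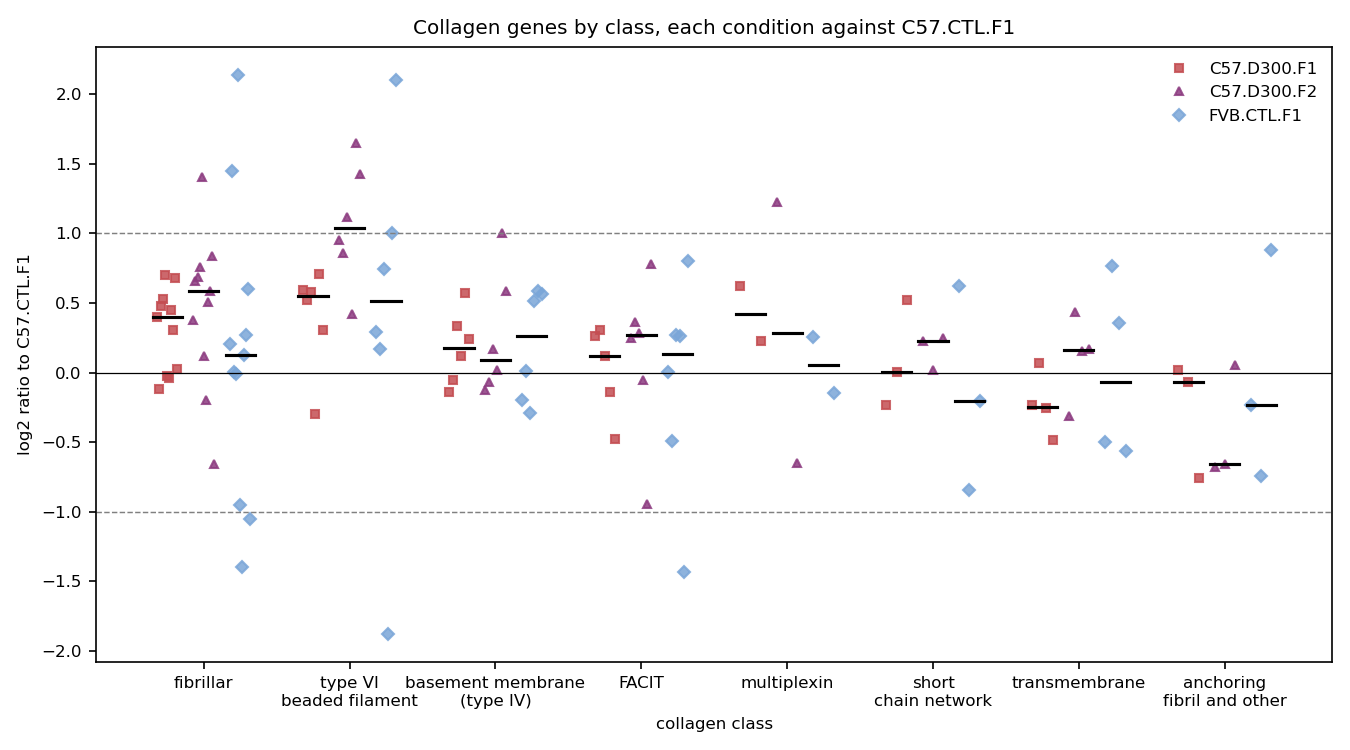
Log2 ratios to C57.CTL.F1 of the collagen genes with at least 10 counts in 1 of both conditions, by class, for C57.D300.F1, C57.D300.F2 and FVB.CTL.F1. Black bars are class medians and dashed lines the call threshold of 1 log2 unit, and the type VI median of C57.D300.F2 (1.04) is the only one past it.

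The strains differed in individual members in both directions. Between the vehicle conditions, 4 of 41 members were called higher in FVB.CTL.F1 and 4 lower, against 7.5% and 18.8% of all 17086 genes. The higher members were Col24a1 (2.14 ± 0.82), Col6a6 (2.10 ± 0.50), the cartilage gene Col11a2 (1.45 ± 0.73) and Col6a5 (1.005, at the threshold). The lower members were Col6a4 (-1.88 ± 0.82), Col22a1 (-1.43 ± 0.67), the cartilage gene Col2a1 (-1.40 ± 0.86) and Col5a3 (-1.05 ± 0.60). In counts, Col6a6 was 138 in the C57BL/6J and 596 in the FVB/N vehicle condition, while its neighbour Col6a4 was 35.3 and 8.90. Col1a1 had 8376 and 8399 counts. The split of calls was 5 higher to 3 lower when totals were made equal, against 11.4% and 15.9% of all genes. It was the same with the upper quartile as scale, against 11% and 16.2%.

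Between the DEHP conditions, 6 of 39 members were called higher in FVB.D300.F1 and 5 lower, against 12% and 19.9% of all 17377 genes. With the upper quartile as scale, the split was 6 to 2, against 14.6% and 17.5% of all genes. Col24a1, Col11a2 and Col6a6 were called higher here as well, with log2 ratios of 1.92, 1.85 and 1.83, and Col6a4, Col22a1, Col2a1 and Col5a3 lower, with -1.07, -1.13, -1.06 and -1.10. Col7a1 had the largest ratio of the members, 2.29 ± 0.52, with 96.6 and 476 counts. Col8a2 was called lower, with 240.4 and 87.4 counts (-1.45 ± 0.53). The hemidesmosome collagen Col17a1 (1.01 ± 0.61) and the growth cartilage collagen Col10a1 (1.22 ± 1.23) were the other members called higher. The median was -0.52 over the members and -0.072 over all genes. The type IV median was -0.096 and turned positive (0.030) with the upper quartile as scale.

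Within the newly made libraries, FVB.CTL.F1 was set against C57.D300.F2, which differ in strain, lineage and generation. Of 41 members, 0 were called higher and 3 lower, against 4.2% and 11.6% of all 16969 genes. The lower members were Col6a4 (-2.30 ± 0.80), Col2a1 (-1.20 ± 0.85) and Col27a1 (-1.07 ± 0.60). Col6a6 was at 0.68 ± 0.49 and Col24a1 at 0.73 ± 0.68, short of the threshold. Col6a4 and Col2a1 were thus called lower in FVB/N within and across the library sets, but not under every setting. Between the DEHP conditions they were at -0.95 and -0.94 with the upper quartile as scale, and at -0.74 and -0.68 with a pseudocount of 10. With that pseudocount Col2a1 was also short of the threshold between the vehicle conditions (-0.87) and within the newly made libraries (-0.73).

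Chains that assemble into the same molecule kept their ratio in some pairs and not in others. Ratios were taken per kb of annotated exon, with the model SD. Col1a1 to Col1a2 was 2.07 ± 1.16, 1.99 ± 1.34, 1.97 ± 1.33, 2.09 ± 1.19 and 2.07 ± 1.17. Col4a1 to Col4a2 was 1.10 ± 0.373, 1.04 ± 0.349, 1.06 ± 0.356, 0.954 ± 0.321 and 0.954 ± 0.317, and Col6a1 to Col6a2 was 1.18 ± 0.487, 1.24 ± 0.592, 1.25 ± 0.611, 1.28 ± 0.574 and 1.43 ± 0.635. The highest ratio was 1.06, 1.15 and 1.22 times the lowest in these pairs, which is within the model SD. The Col4a3 to Col4a4 ratio was 0.561 ± 0.191, 0.654 ± 0.221, 0.624 ± 0.209, 0.320 ± 0.111 and 0.383 ± 0.130, lower in both FVB/N conditions than in all 3 C57BL/6J conditions. The difference was -0.241 ± 0.221 between the vehicle conditions, -0.271 ± 0.257 between the DEHP conditions and -0.304 ± 0.237 within the newly made libraries. Col6a3 to Col6a1 was 0.266 ± 0.101, 0.263 ± 0.116, 0.299 ± 0.133, 0.364 ± 0.154 and 0.437 ± 0.188, highest in FVB.D300.F1. Its difference stayed within the model SD in every comparison, with 0.174 ± 0.221 between the DEHP conditions. For Col4a5 to Col4a6, Col5a1 to Col5a2 and Col8a1 to Col8a2 the highest ratio was 1.33, 1.48 and 1.63 times the lowest. These differences also stayed within the model SD. Exon length bears on the level of each ratio. With the longest annotated transcript as length, Col1a1 to Col1a2 lay between 0.937 and 0.995, while the comparison between conditions is the same.

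**Figure D4:**
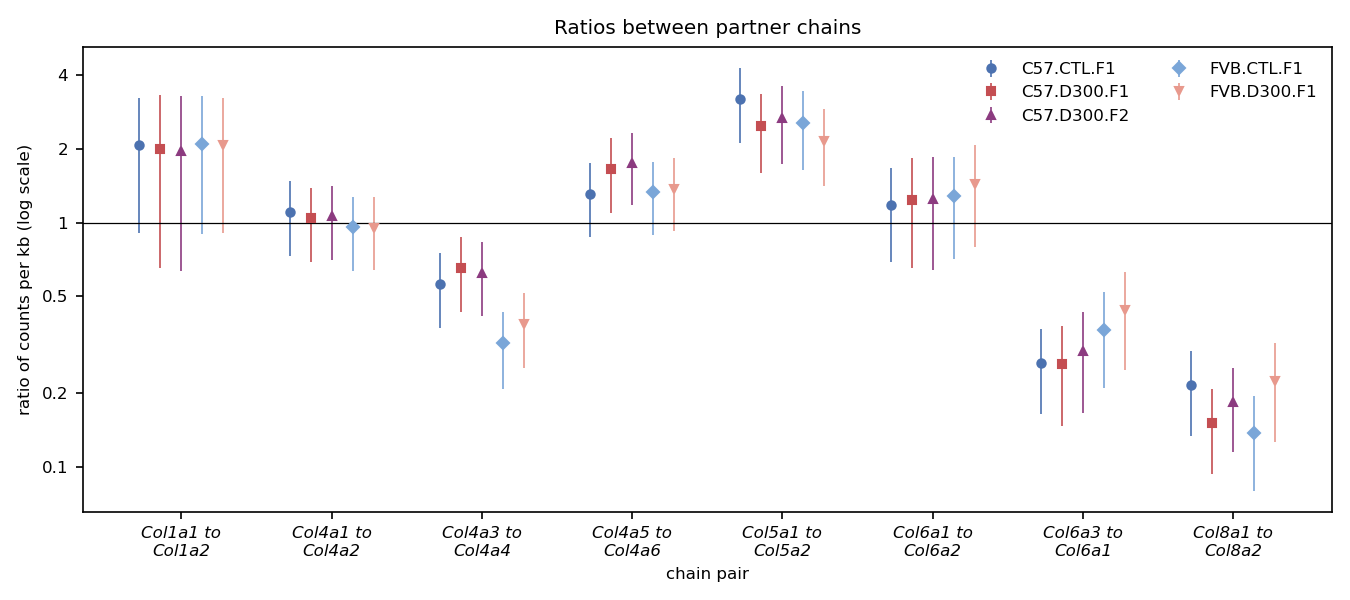
Ratio of counts per kb of exon (log scale) between 8 pairs of collagen chains in the 5 conditions, with the model SD as bars. Col1a1 to Col1a2 stays near 2 in all conditions, and Col4a3 to Col4a4 is lower in FVB.CTL.F1 (0.32) and FVB.D300.F1 (0.38) than in the C57BL/6J conditions.

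The genes that make, process, degrade and bind collagen were described from lists of the pathway. Of all genes, 1.09% were called higher and 1.15% lower with DEHP in C57BL/6J, and 2.16% and 0.619% in FVB/N. In the second generation against C57.CTL.F1 the shares were 4.1% and 10.2%. Beside these shares, at which 15 genes would hold few calls, 0 of 15 tested genes that modify and fold the chains were called in these comparisons. The 3 with the highest count in any condition were P4hb, the protein disulfide isomerase subunit of prolyl hydroxylase, with 6936, 6221, 5298, 8869 and 9251 counts, the prolyl isomerase Ppib with 811, 790.5, 968, 1123 and 1149, and the collagen chaperone Serpinh1 with 422, 548, 714, 387 and 348. In the second generation against vehicle, 12 of the 15 had a ratio above 0 (median 0.46), while P4hb was at -0.39. Serpinh1 had log2 ratios of 0.38, -0.15 and 0.76 for DEHP in C57BL/6J, DEHP in FVB/N and the second generation.

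The cleavage and crosslinking genes had ratios of the same sign as most of the fibrillar genes. All 12 tested had a ratio above 0 with DEHP in C57BL/6J (median 0.38), and 10 of 12 below 0 in FVB/N (median -0.26). Of the 12, 0 were called in either strain, against 1.09% higher and 1.15% lower of all genes in C57BL/6J and 2.16% and 0.619% in FVB/N. In C57.D300.F2, compared with vehicle, 3 of 12 were called higher and 0 lower, against 4.1% and 10.2% of all genes. They were the procollagen N-proteinases Adamts2, with 577, 869.6, 1161, 682 and 555 counts, and Adamts3, with 31.9, 43.2, 76.2, 21.5 and 17.9, and the crosslinking enzyme Lox, with 159.8, 280.1, 329.9, 182 and 124. Their log2 ratios were 1.01, 1.23 and 1.04. Pcolce, an enhancer of C-propeptide cleavage, had 759, 956, 948, 664 and 554 counts.

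Among the genes of collagen degradation, Mmp8, the neutrophil collagenase, was called higher with DEHP in FVB/N (1.38), and with Timp4 in C57.D300.F2 when set against its parental condition (1.46 and 1.17). In FVB/N this was 1 of 9 tested genes higher and 0 lower, against 2.16% and 0.619% of all genes. Against the parental condition it was 2 of 9 higher and 0 lower, against 2.69% and 8.35%. Mmp8 counts were low, at 16.5, 8.21, 24.3, 14.9 and 40.4. Timp2, a metalloproteinase inhibitor, was the most abundant of the list with 1953, 2989, 3263, 2229 and 1726 counts, followed by Timp3 with 526, 551, 511, 633 and 540.2 and the gelatinase Mmp2 with 416, 423, 456, 529 and 502. Of the collagen receptors, the integrin chain Itga11 was called higher with DEHP in FVB/N (1.11) at 15.2 and 33.8 counts. That was 1 of 8 tested genes higher and 0 lower, against 2.16% and 0.619% of all genes. Itga2, the integrin chain of epithelia and platelets, was called higher in C57.D300.F2 against both first generation C57BL/6J conditions (2.15 and 1.79), with 22.1, 28.7, 102, 165 and 108 counts. In each it was the 1 of 8 tested receptor genes called, against 4.1% and 2.69% of all genes called higher. The common integrin chain Itgb1 had 2332, 2344, 2037, 2487 and 2415 counts, and the receptor kinases Ddr1 and Ddr2 251, 228, 384, 774 and 630.4 and 466, 601, 698, 386 and 327. Ddr1 was thus highest in FVB/N and Ddr2 in C57.D300.F2.

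With DEHP, 1.09% of all genes were called higher and 1.15% lower in C57BL/6J, and 2.16% and 0.619% in FVB/N. In the second generation against C57.CTL.F1 it was 4.1% and 10.2%. Beside these shares, at which 16 genes would hold few calls, 0 of the 16 other basement membrane genes were called. Their medians were 0.085, 0.018 and 0.20. The 3 with the highest count in any condition were Sparc, a collagen-binding matrix protein, with 5819.8, 7886, 8308, 6301 and 4638 counts, the perlecan gene Hspg2 with 2400.0, 2569.9, 3021, 2570.4 and 2124, and, through its FVB/N values, the laminin chain Lama1 with 638, 442, 651, 2106 and 2626. Across the C57BL/6J conditions, Sparc had the order of Col1a1, with C57.D300.F2 highest.

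Most fibroblast markers had ratios of the same sign as the fibrillar genes. The 10 fibroblast markers had a median log2 ratio of 0.35 with DEHP in C57BL/6J (9 of 10 above 0), -0.28 in FVB/N (9 of 10 below 0) and 0.38 in the second generation (7 of 10 above 0). Their summed count was 22146, 29472, 23769, 17337 and 16241, and none of them was at 0. The fibroblast proteoglycans Dcn and Bgn had 7513, 10419.7, 11314, 8091 and 7596 counts and 1561, 2352, 2588, 1385 and 1075 counts, and the fibroblast receptor Pdgfra 1111, 1599, 1948, 1221 and 1079. Each was highest in C57.D300.F2, like Col1a1. Of the other markers, Lum and Fbn1 were also highest there. Fn1, Vim and Thy1 were highest in C57.D300.F1, Postn in C57.CTL.F1 and Eln in FVB.CTL.F1. Lum was the marker called higher with DEHP in C57BL/6J (1.10) and in C57.D300.F2 (2.05), and Fn1, which the liver also makes, was called lower there (-1.52). Their part in the collagen differences was not tested.

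Smooth muscle markers shared the sign of the fibrillar, type IV and type VI medians with DEHP in FVB/N, but not in C57BL/6J. All 6 had a ratio below 0 with DEHP in both strains and in the second generation, with medians of -0.76, -0.65 and -0.95, and their summed count was 18834, 10815, 8310.5, 12424 and 8390.2. The 5 endothelial markers summed to 1521, 1924, 1195, 817 and 738 counts. All 5 had a ratio above 0 with DEHP in C57BL/6J (median 0.32) and below 0 in FVB/N (-0.14), the signs of most fibrillar genes, and 4 of 5 were below 0 in the second generation (-0.45). Their part in the collagen differences was not tested. The 4 blood markers summed to 852, 749, 495, 344 and 1065, and Hba-a1 was near 0, at 0.00519 counts or less. The 5 liver markers summed to 151493, 138358, 3673, 809 and 551, and the 4 seminal vesicle markers to 202243, 67.0, 481, 321 and 205. The 5 epididymal markers with an estimate in all conditions summed to 213, 208, 182, 98.6 and 35032. Crisp1, the other gene of that list, is left out of this sum. It had an estimate in C57.CTL.F1 (108274 counts) and FVB.D300.F1 (219328 counts) only, so the sum does not stand for all epididymal RNA. The highest sums of the fibrillar, type IV and type VI classes were at most 2.29 times their lowest, and that of the class with Col7a1 was 3.88 times. Whether the steps of the liver, seminal vesicle and epididymal lists bear on the collagen differences was not tested. The sperm markers were far lower in both FVB/N conditions, as given above, and whether this bears on the strain comparisons of collagen genes was not tested.

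**Figure D5:**
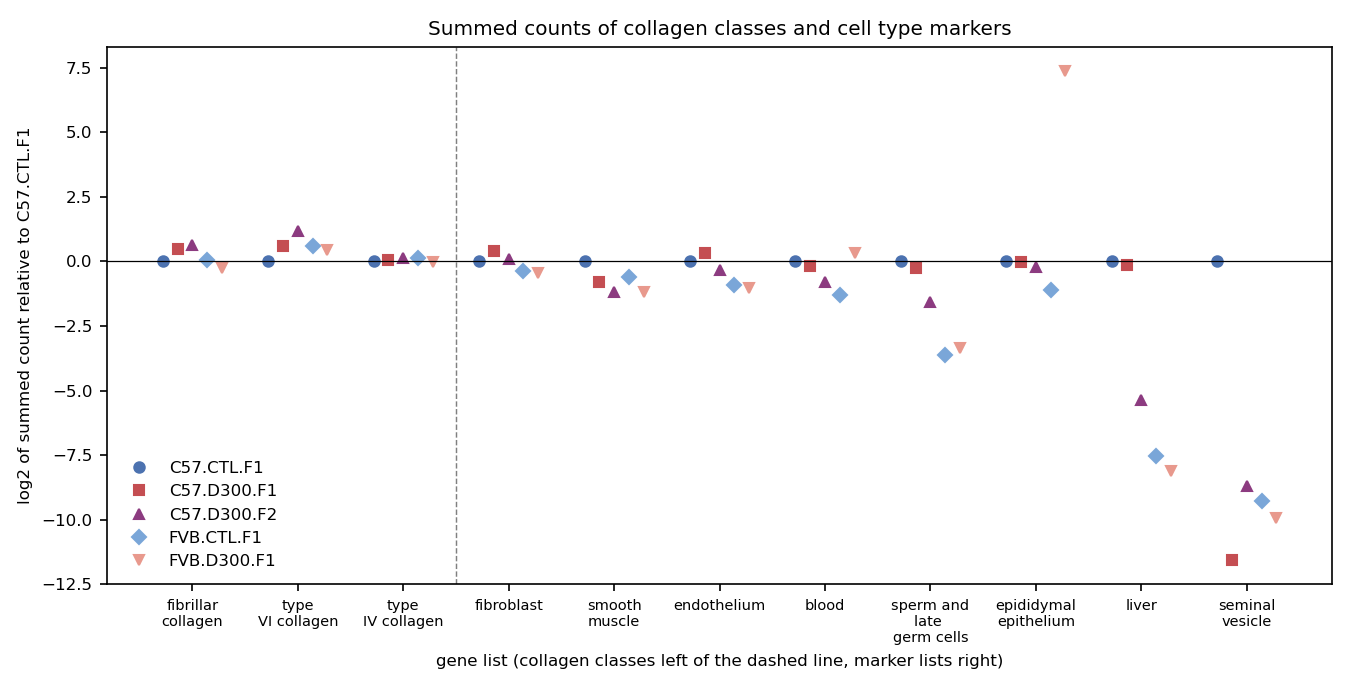
Log2 of the summed count of 3 collagen classes and 8 marker lists relative to C57.CTL.F1, with 1 marker per condition. The collagen classes lie between -0.26 and 1.20, and the liver, seminal vesicle and epididymal lists move by several log2 units. The epididymal list is without Crisp1, which lacks an estimate in some conditions.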

How the data were processed

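All-RNA-seq of mouse cauda epididymal sperm was used, with 25 libraries in 5 conditions. The authors clipped the RA3 adapter, kept reads of at least 18 bases, aligned the rest by strand with TopHat (genome mm10) and estimated gene levels by Cufflinks and Cuffdiff. Base calls came from CASAVA 1.8.2 per the submitters' processing notes. Cuffdiff options and the annotation release are not given in the sources used here. The deposited values are a signal, 1 scaled estimated fragment count per gene and condition over 5 libraries, with a model variance. In all, 10 columns were used. Estimates that failed were treated as missing.

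Log2 ratios, calls, class medians and sums, ratios per kb of exon and model SDs were computed with Python 3.11.15, numpy 2.4.6, pandas 2.3.3 and matplotlib 3.10.9, tested on simulated data. Ratios used 1 added count, a minimum of 10 counts and a threshold of 1 log2 unit. The detection limit was set at 3 counts, which covers counting error only. Coordinates and exon lengths are those of GENCODE M21 on GRCm38. Named members had at least 100 counts in some condition or a call. Of each partner list, the genes called in a comparison by DEHP or generation and the 3 with the highest count in any condition were named. Members, classes, partner lists and marker lists were chosen with earlier results of these data known. Alternatives were scaling to equal totals, by median of ratios or upper quartile, other pseudocounts, other minimum counts, a threshold of 2 log2 units, the longest transcript as length, the multiplexins added to the type IV class and fibrillar types I, III and V alone. All-gene shares under each scaling were added after the data were seen. Sperm parameters and methylation were not analysed here.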

Additional observations from a re-analysis of the deposited data

Results flagged for a closer look

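For 3 collagen genes the response to prenatal DEHP lay in opposite directions in the strains and the responses were at least 1 log2 unit apart. With 1 value per condition, this difference was not tested. The 1 of 41 members at or above 1 and the 2 at or below -1 stand beside 4.45% and 2.92% of all genes, shares close to those of the members, so the count is no result about collagens. The values are FVB/N minus C57BL/6J. Col7a1, the anchoring fibril collagen, was at 1.41, with a log2 ratio of DEHP to vehicle of -0.76 in C57BL/6J and 0.65 in FVB/N. Col8a2, a short chain network collagen, was at -1.25, with 0.52 and -0.72. Col15a1, a multiplexin, was at -1.004, with 0.62 and -0.38. The difference exceeded its model SD in each of them. Col15a1 lay at the limit of 1 log2 unit.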

How the results depend on the processing

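No paired analysis was possible because the table holds 1 value per condition, and for the same reason no library could be left out. Of the main counts and medians, 286 alternative values stayed near the main value (a median within 0.5 log2 units, a share within 10 percentage points, a count within 1.5 times), a pair of them with a changed sign given below, and 24 moved, all of them counts of members past a threshold. Between C57.D300.F2 and the C57BL/6J vehicle condition, the 5 members called higher became 12 with equal totals, 12 with the upper quartile and 0 at a threshold of 2 log2 units. Between C57.D300.F2 and its parental C57.D300.F1, the 1 called higher became 2 with equal totals and 3 with the upper quartile. On these scales 4.38% and 5.03% of all genes were called higher. It became 2 with no minimum count and 0 at 2 log2 units. Between the vehicle conditions, FVB/N to C57BL/6J, the 4 called lower became 2 with a pseudocount of 10. With a minimum of 100 counts there were 2 higher and 1 lower, and at 2 log2 units 2 higher and 0 lower. In FVB.D300.F1 against C57.D300.F1, the 5 called lower became 2 with the upper quartile and 1 with a pseudocount of 10. With a minimum of 100 counts there were 2 higher and 2 lower, and at 2 log2 units 1 higher and 0 lower. In FVB.CTL.F1 against C57.D300.F2, the 3 called lower became 1 with a pseudocount of 10, 0 with a minimum of 100 counts and 1 at 2 log2 units. The 2 members whose strain difference was -1 or below became 11 with equal totals, 1 with median of ratios and 1 with a pseudocount of 10. With equal totals the median difference over all genes also moved, from 0.029 to -0.25, and that of the members from -0.27 to -0.55. The share of all genes at -1 or below was not computed on that scale, so the 11 are no result about collagens. The fewer calls with a higher minimum or threshold follow from their construction, and for the others the cause was not tested. The type IV median changed sign in a pair of comparisons, from 0.00049 to -0.0053 with median of ratios for C57.D300.F2 to C57.D300.F1, and from -0.096 to 0.030 with the upper quartile for FVB/N to C57BL/6J with DEHP. With the longest transcript as length, 35 chain ratios changed by no more than their model SD, and the 5 ratios of Col8a1 to Col8a2 changed by more. That SD is wide, so the level of a ratio among the 35 still depends on the length. In C57.CTL.F1, Col1a1 to Col1a2 went from 2.07 ± 1.16 to 0.985 and Col6a1 to Col6a2 from 1.18 ± 0.487 to 0.742.

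Each value pools 5 libraries, so the spread between animals is not in it. The model SD of the most abundant members is large. It was 3369 on 8376 counts of Col1a1 in C57.CTL.F1. Members under 100 counts give ratios that depend on the added count.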

Other observations

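Among the 16 other basement membrane genes, which are laminins, proteoglycans and their partners rather than collagens, the strains differed in a few genes that had higher values in FVB/N. With DEHP, 4 of 16 were called higher in FVB.D300.F1 than in C57.D300.F1 and 0 lower, beside 12% and 19.9% of all genes. Between the vehicle conditions 1 of 16, Lama1, was called higher and 0 lower, beside 7.5% and 18.8%. Lama1, a laminin chain of the early embryo and some epithelia, had 442 counts in C57.D300.F1 and 2626 in FVB.D300.F1. With vehicle it had 638 in C57BL/6J and 2106 in FVB/N. It was the 1 gene of the list also called higher in FVB.CTL.F1 against C57.D300.F2 (651 counts), within the newly made libraries. There, 4.2% of all genes were called higher. With DEHP, Agrn, which encodes the proteoglycan agrin, had 624 and 1305 counts. The chains of an epithelial anchoring laminin, Lama3 and Lamb3, had 146 and 319 counts and 47.2 and 117 counts. Of the type IV genes, 0 were called in the same comparison. Apart from that within the newly made libraries, these comparisons cross the library sets, which cannot be told apart from strain.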
